A study of Mus musculus with 12 samples.

Results

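The subunits of respiratory complexes II, III, IV and V that are encoded in the nucleus, together with cytochrome c, were followed in bone marrow-derived macrophages of the mouse. Members were taken by name from the protein-coding genes of the deposited count table: Sdha to Sdhd for complex II, symbols starting with Uqcr and Cyc1 for complex III, Cycs for cytochrome c, symbols starting with Cox4 to Cox8 for complex IV and symbols starting with Atp5 for complex V. The rule found 42 of 13715 genes: 4 of complex II, 8 of complex III, 1 cytochrome c gene, 13 of complex IV and 16 of complex V. It used no measured value. Not every nuclear subunit was among them. Atp5a1 of complex V and Uqcrc1 of complex III were missing, as were the isoform genes Cox4i2, Cox6b2, Cox8b, Cox8c and Cox7b2.

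Complex II (succinate dehydrogenase) oxidises succinate in the tricarboxylic acid cycle and passes the electrons to ubiquinone. Complex III transfers them from ubiquinol to cytochrome c, complex IV (cytochrome c oxidase) reduces oxygen with them, and complex V (ATP synthase) makes ATP from the proton gradient that complexes III and IV help to build. Complex II is encoded wholly in the nucleus, whereas the other complexes also hold subunits encoded in mitochondrial DNA. Macrophages activated by IL-4 are known for a high use of oxidative phosphorylation, and LKB1, the product of Stk11, is a kinase that activates the energy sensor AMPK.

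The cells came from WT mice or from LysMCre Stk11 fl/fl mice, called KO here, in which Cre is expressed from the lysozyme M gene Lyz2 in myeloid cells and deletes the floxed Stk11. Bone marrow cells of both genotypes were cultured with 40 ng/ml M-CSF for 7 days and then left as mock or given 20 ng/ml IL-4 for 24 h. This gave 4 groups of 3 libraries: WT mock, WT IL-4, KO mock and KO IL-4. No group of Cre mice without a floxed Stk11 was among the samples, so loss of Stk11 and the Cre insertion in Lyz2 cannot be told apart. The labels number the samples 1 to 3 within a genotype and do not say that they came from separate animals. The p-values therefore reflect only how these samples varied, possibly for technical reasons.

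Library totals lay between 30651627 and 39136822 counts. Levels are given as CPM, relative to the library total scaled by its TMM factor. Stk11 stood at 44.9, 46.01 and 37.7 CPM in WT mock libraries 1, 2 and 3 and at 5.34, 3.87 and 8.77 CPM in the KO mock libraries, and with IL-4 at 42.5, 54.4 and 38.7 CPM in WT and 8.31, 5.56 and 9.24 CPM in KO, so the genotypes did not overlap. KO library 2 stood apart in both treatments: Lyz2 was at 43.1 and 43.4 CPM there and between 15362 and 44637 CPM in the other 10 libraries. All 8 macrophage markers were in the table. Their summed level, which includes Lyz2, was 47052 to 51999.6 CPM in WT mock, 36815 to 39571 CPM in WT IL-4, 6833 to 28688 CPM in KO mock and 8285 to 24079 CPM in KO IL-4. Lyz2 alone took 39652 to 44637 CPM of it in WT mock and 28471 to 31113 CPM in WT IL-4. The order of these sums therefore mostly follows Lyz2, the gene with the Cre insertion in KO, and does not show how the other macrophage markers moved. By the calls defined below, 3 of the 8 rose and 3 fell with IL-4 in WT (13.6% and 13.0% of all genes). In KO 3 rose and 4 fell with IL-4 (16.0% and 14.2%). Between the genotypes, 2 were higher and 3 lower in KO mock (15.7% and 18.8%). Under IL-4, 2 were higher and 1 was lower in KO (8.57% and 10.2%). The 9 neutrophil and granulocyte precursor markers measured, of 12 listed, summed to 198 to 320.5 CPM in WT mock, 185 to 289.6 CPM in WT IL-4, 562 to 1077 CPM in KO mock and 425 to 864 CPM in KO IL-4. Of these 9, 8 were called higher in KO mock and 6 with IL-4 (15.7% and 8.57% of all genes), and none lower (18.8% and 10.2%). The 5 erythroid and megakaryocyte markers measured, of 11 listed, summed to 40.4 to 58.4 CPM in WT mock, 41.2 to 63.97 CPM in WT IL-4, 575 to 647 CPM in KO mock and 513 to 602 CPM in KO IL-4. Gata1, Alas2 and the globin genes of that list were not in the table. The sum therefore rests on Klf1, Epor, Pf4, Ppbp and Itga2b and does not show which of them it follows. Of these 5, 3 were called higher in KO mock and 4 with IL-4 (15.7% and 8.57% of all genes), and none lower (18.8% and 10.2%). None of the measured markers was at 0 in all libraries. The part of these differences in the results on respiratory genes was not tested. In bulk RNA, fewer cells of a type and less RNA per cell cannot be told apart.

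Length differed between libraries in a way that touches these genes, since their transcripts are short. The median transcript length was 669.5 bases over the 42 members and 2833.5 bases over 8126 genes whose mean log2 CPM was above 3. Over those 8126 genes, Spearman's rho of transcript length with the log2 fold change was -0.53 for KO against WT in mock, -0.07 for KO against WT with IL-4, -0.14 for IL-4 in WT, 0.38 for IL-4 in KO and 0.62 for the interaction of genotype and IL-4. These correlations run across genes, and genes are no replicates. Within a group, too, libraries deviated by length, with rho between -0.62 (WT IL-4 library 2) and 0.57 (WT IL-4 library 1) for the deviation from the group mean. Counts of called members are therefore given below with and without a correction for transcript length and GC content, which was chosen after seeing the data.

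Promoter sequences from RefSeq (GRCm38.p6, 250 bases before to 50 bases after each gene's start) were matched by symbol for 32 of the 42 members. They were searched on both strands for motifs of 3 factors known to act on nuclear genes of the respiratory chain: NRF1 (the 10 letters in capitals in Sdha and Sdhd, read on either strand), the ETS factor GABP (CCGGAAGT) and YY1 (AAGATGGCG). The NRF1 motif was found in 9 of the 32 members (28.1%), namely Sdha, Sdhd, Cox6a1, Atp5c1, Atp5g2, Atp5g3, Atp5h, Atp5k and Atp5o, against 11.95% of 9353 protein-coding genes of the table with a promoter entry and 4.60% of all 32851 promoters. The ETS motif was found in 4 members (12.5%, against 9.58% and 3.89%), namely Uqcrh, Uqcr11, Cox8a and Atp5h. YY1 matches were found in Atp5j and Atp5j2 (6.25%, against 3.74% and 1.40%). No match of one motif overlapped a match of another in these promoters. A match is a description of letters and not a measured binding site. Of the stretches that hold matches upstream of the start, those of Atp5c1, Atp5g2, Atp5j and Atp5k, all of complex V, are not shown. The others are shown, for 2 members each of complexes II and III and 1 each of complexes IV and V. The number shown per complex therefore does not follow the number of matches. Each runs 5′ to 3′ from 25 bases before the first match to 25 bases after the last or to the start, on GRCm38.p6, with the matches in capitals.
Sdha (chr13:74350241-74350363, minus strand): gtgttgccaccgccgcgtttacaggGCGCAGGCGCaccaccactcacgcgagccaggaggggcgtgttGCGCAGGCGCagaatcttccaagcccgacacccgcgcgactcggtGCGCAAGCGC
Sdhd (chr9:50603894-50603953, minus strand): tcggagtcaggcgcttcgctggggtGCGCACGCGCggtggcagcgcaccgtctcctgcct
Uqcrh (chr4:116075071-116075106, minus strand): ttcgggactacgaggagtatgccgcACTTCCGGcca
Uqcr11 (chr10:80406855-80406912, minus strand): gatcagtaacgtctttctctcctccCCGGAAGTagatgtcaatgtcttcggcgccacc
Cox6a1 (chr5:115349041-115349145, minus strand): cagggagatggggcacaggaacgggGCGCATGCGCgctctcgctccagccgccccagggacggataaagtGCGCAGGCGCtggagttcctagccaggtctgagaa
Atp5h (chr11:115419926-115420085, minus strand): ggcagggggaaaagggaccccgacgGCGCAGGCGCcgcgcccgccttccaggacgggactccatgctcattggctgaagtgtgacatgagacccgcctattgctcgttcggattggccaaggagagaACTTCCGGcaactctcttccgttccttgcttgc
In Sdha, the gene of the flavoprotein that oxidises succinate, 3 NRF1 matches stood within 98 bases of the start, and in Cox6a1 the 2 matches lay between 162 and 108 bases before it. Sdhd had 1 NRF1 match, Uqcrh and Uqcr11 had 1 ETS match each and Atp5h had 1 NRF1 and 1 ETS match.

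Relative to mock, IL-4 raised transcripts of all complexes in WT macrophages and, without a correction for length, few in KO macrophages. In WT, 36 of the 42 members were called higher and none lower, where a call is an adjusted p under 0.05 from edgeR's quasi-likelihood test over all 13715 genes; of all genes 13.6% were called higher and 13.0% lower. The median log2 fold change was 0.52 over the members and -0.02 over all genes. In KO, 6 members were called higher and none lower (16.0% and 14.2% of all genes were called), with a median of 0.08 against 0.00 over all genes. Those 6 were Sdha, Cox6a2, Cox7b, Cox8a, Atp5b and Atp5g3, and all but Cox6a2 were also called higher in WT.

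Without IL-4 part of these transcripts was higher in KO than in WT macrophages, and with IL-4 part was lower. In mock, 18 members were called higher in KO and 1, Cox6a2, lower (15.7% and 18.8% of all genes). With IL-4, none was called higher and 10 were called lower (8.57% and 10.2% of all genes). The median log2 fold change of KO against WT was 0.24 in mock and -0.19 with IL-4, against -0.02 and -0.01 over all genes. The estimate was above 0 in mock and below 0 with IL-4 for 37 of the 42 members, and 3 members (Uqcr10, Uqcr11 and Atp5o) were called in both directions. Each contrast counted alone, the estimate was above 0 in mock for 41 members and 6594 of all 13715 genes. With IL-4 it was below 0 for 38 members and 7061 of all genes. The interaction, the log2 change with IL-4 in KO less the same change in WT, was below 0 for 41 members and for 6235 of all 13715 genes. It was called for 6 members, all lower: Cyc1, Uqcr10, Uqcr11, Uqcrq, Atp5g1 and Atp5o (0.408% of all genes were called lower and 0.328% higher). With IL-4 in WT, 37 members had all IL-4 libraries above all mock libraries and none below (18.6% and 19.7% of all genes), and in KO 16 were above and 4 below (23.5% and 24.2%). KO lay above WT without overlap for 20 members in mock and below for 1 (22.7% and 25%), and with IL-4 for none and 23 (17.1% and 18.8%). The contrasts share groups of libraries, so these counts are not independent of each other.

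**Figure D1:**
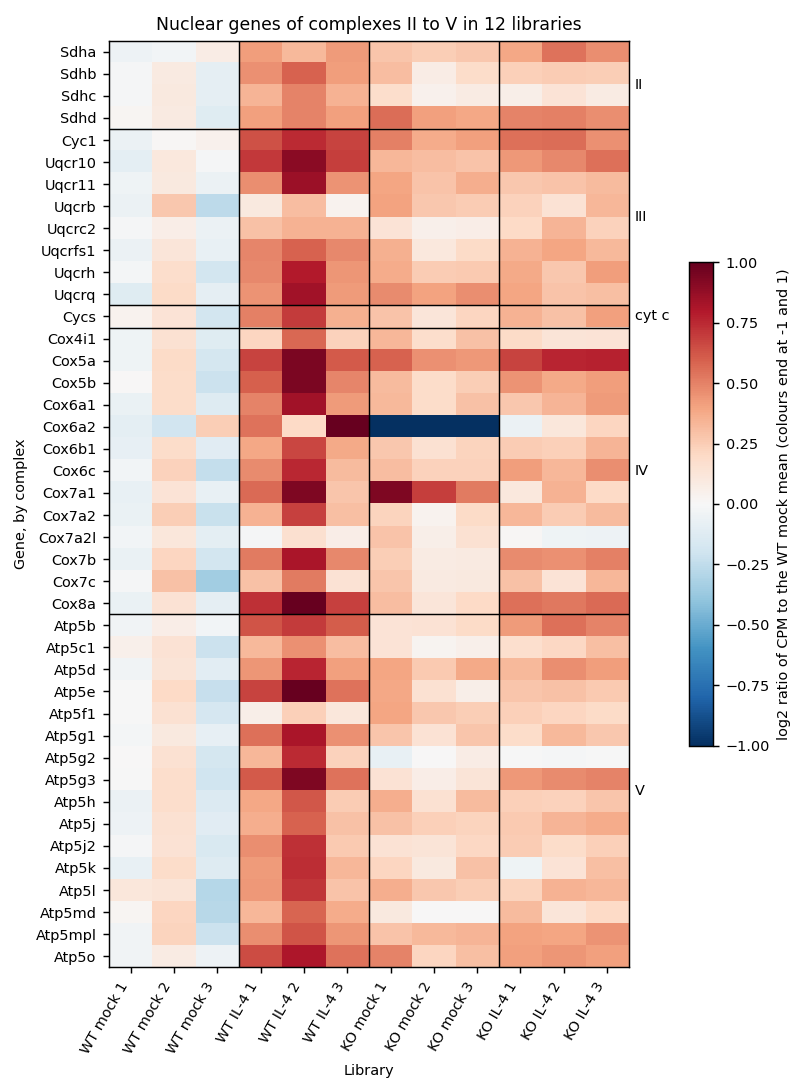
Heat map of the log2 ratio of each member's CPM to its mean over the WT mock libraries, with libraries as columns in 4 groups and the 42 genes as rows by complex. The WT IL-4 columns are the reddest for most genes, the 3 KO IL-4 columns lie between them and WT mock, and Cox6a2 is blue in the KO mock columns, past the end of the scale at -1.

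With the correction for transcript length and GC content, IL-4 in WT raised 37 members and IL-4 in KO raised 27 (15.1% and 18.3% of all genes called higher), with medians of 0.38 and 0.20. In mock, 6 members were then higher in KO and 3 lower (13.0% and 19.2% of all genes), with a median of 0.04, and with IL-4 18 were lower and none higher (12.4% and 10.4%), with a median of -0.15. The interaction was then called for 2 members, Cyc1 and Uqcrq (0.335% lower and 0.678% higher over all genes), with a median of -0.19 and 40 of 42 estimates below 0. The members higher in KO mock with and without the correction were Sdha, Sdhd, Cyc1, Uqcr11, Uqcrq and Cox5a.

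Single libraries also moved the counts. In the counts that follow, each percentage is the share of all genes called in the same direction when the same libraries were left out. The number of members higher in KO mock was 10 without WT mock library 1 or 3 (11.6% and 13.9% of all genes), 11 without KO mock library 1 or 3 (10.8% and 13.2%), 32 without WT mock library 2 (17.3%) and 16 without both KO 2 libraries (13.9%), where 15.7% of all genes were called with all libraries. The number lower in KO with IL-4 was 1, 3 and 4 when KO IL-4 library 1, 2 or 3 was dropped (6.77%, 6.79% and 7.44%), 6 or 2 when WT IL-4 library 1 or 2 was dropped (6.44% and 9.48%), and 2 without both KO 2 libraries (6.45%), against 10.2% of all genes with all libraries. For IL-4 in KO, 2 members were higher without KO mock library 2 or without both KO 2 libraries (14.7% and 11.8%) and 3 without KO IL-4 library 3 (12.5%), against 16.0%. For IL-4 in WT the count stayed between 35 and 39 when any 1 library was left out (11.8% to 14.3%). The interaction was called by edgeR for no member and no gene of the table without KO IL-4 library 1 or without both KO 2 libraries, where 32 and 33 members (16.9% and 16.8% of all genes) had an unadjusted p under 0.05. It was called lower for 1 member when mock library 1 or 3 of WT (0.0656% and 0.109% of all genes), mock library 1 or 3 of KO (0.0875% and 0.153%) or IL-4 library 2 or 3 of KO (0.153% and 0.0875%) was left out. It was called lower for 2 without KO mock library 2 (0.197%), for 3 without WT IL-4 library 1 or 2 (0.204% and 0.212%) and for 11 without WT mock library 2 (0.547%). With the replicate number as a block, which pairs mock with IL-4 libraries of a genotype, the interaction was called lower for 32 members and higher for none (5.14% and 6.5% of all genes) and IL-4 in KO raised 10 and lowered 1, Cox7a2l (20.3% and 18.2%). IL-4 in WT then raised 37 members and lowered none (16.8% and 16.7%). For KO against WT the block was the number alone, shared by the WT and KO libraries of that number. With that block 20 were higher and 1 lower in KO mock (14.9% and 18.7%), and with IL-4 7 were lower in KO and none higher (9.89% and 8.31%).

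**Figure D2:**
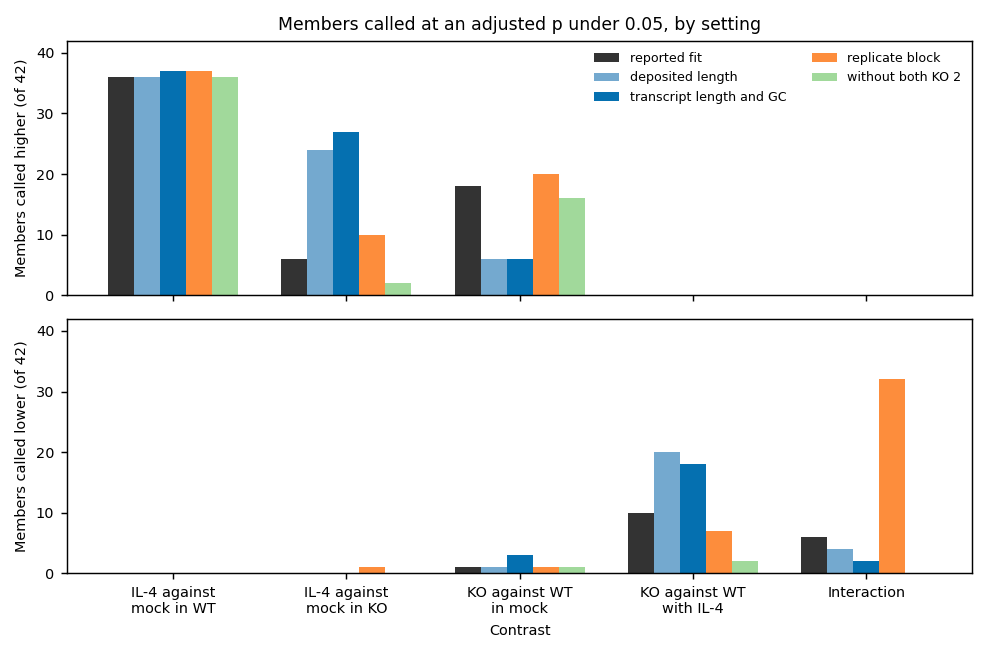
Bars count the members, of 42, called higher (upper panel) or lower (lower panel) in each of 5 contrasts under the reported fit, a correction for the deposited gene length, a correction for transcript length and GC content, the replicate block, and without both KO 2 libraries. The bars for IL-4 in WT stand at 36 or 37 in all 5 settings, whereas those for IL-4 in KO run from 2 to 27 and those for the interaction from 0 to 32.

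The 4 genes of complex II rose with IL-4 in WT (13.6% of all genes), and Sdha also rose in KO (16.0%). With the length and GC correction 3 of the 4 were called higher in KO (18.3%). Sdha, the flavoprotein subunit, stood at 402, 409 and 439.6 CPM in WT mock libraries 1, 2 and 3, 557, 523 and 560.0 CPM in WT IL-4, 507, 495 and 501 CPM in KO mock and 546, 608 and 575 CPM in KO IL-4. The WT mock libraries were the lowest 3 of the 12. Its log2 fold change with IL-4 was 0.39 (adjusted p = 2.31e-04, SE 0.06) in WT and 0.20 (adjusted p = 0.0227, SE 0.06) in KO. The call in KO was lost without any 1 KO mock library, or either of KO IL-4 libraries 2 and 3 (then an adjusted p of 0.0517 to 0.107). In mock Sdha was higher in KO by 0.26 (adjusted p = 0.00453, SE 0.06), and with IL-4 KO against WT was 0.08 (adjusted p = 0.442, SE 0.06).

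Sdhb, the iron-sulfur subunit, was at 232, 249 and 219 CPM in WT mock, 321, 351 and 311 CPM in WT IL-4, 288, 245 and 265 CPM in KO mock and 275, 278 and 277 CPM in KO IL-4. The WT IL-4 libraries were above all others, and the 3 KO IL-4 libraries lay within 3 CPM of each other. Sdhb rose with IL-4 in WT by 0.49 (adjusted p = 1.40e-04, SE 0.07) and was lower in KO than in WT with IL-4, with a log2 fold change of -0.25 (adjusted p = 0.0288, SE 0.07). The second call was lost without any 1 library of the IL-4 groups other than WT IL-4 library 3 (then an adjusted p of 0.0707 to 0.102). KO against WT in mock was 0.19 (adjusted p = 0.0561, SE 0.07), which was called without mock library 2 of WT, mock library 2 of KO or any 1 library of the IL-4 groups.

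Sdhc and Sdhd encode the membrane anchor that binds ubiquinone, and they differed in the genotype contrasts. Sdhc stood at 90.9, 97.9 and 86.3 CPM in WT mock, 116, 129 and 117 CPM in WT IL-4, 103, 94.5 and 97.01 CPM in KO mock and 95.4, 101 and 97.03 CPM in KO IL-4, so that KO IL-4 overlapped KO mock. It rose in WT by 0.40 (adjusted p = 5.71e-04, SE 0.07) and was lower in KO with IL-4, with a log2 fold change of -0.30 (adjusted p = 0.00683, SE 0.07), a call kept in all 12 fits without 1 library. Sdhd stood at 179, 188 and 162 CPM in WT mock, 234, 248 and 234 CPM in WT IL-4, 259.7, 234 and 230.3 CPM in KO mock and 249, 250.3 and 243 CPM in KO IL-4. Only the WT mock libraries stood apart, below the other 9. Sdhd was higher in KO mock by 0.45 (adjusted p = 2.70e-04, SE 0.07) and rose in WT by 0.44 (adjusted p = 2.26e-04, SE 0.07). With IL-4, KO against WT was 0.05 (adjusted p = 0.666, SE 0.07) for Sdhd, and in mock Sdhc gave 0.10 (adjusted p = 0.286, SE 0.07). In KO the IL-4 change was 0.05 for Sdhb, -0.01 for Sdhc and 0.04 for Sdhd (adjusted p = 0.619, 0.947 and 0.723). The interaction estimates of Sdha, Sdhb, Sdhc and Sdhd were -0.19, -0.44, -0.40 and -0.40 (adjusted p = 0.264, 0.0668, 0.0714 and 0.0714), and with the replicate block those of Sdhb, Sdhc and Sdhd were called (adjusted p = 0.00553, 0.00973 and 0.00825).

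In complex III, 7 of 8 genes rose with IL-4 in WT, none was called in KO, and 7 were higher in KO mock than in WT mock (13.6%, 16.0% and 15.7% of all genes called higher). With the length and GC correction 5 rose in KO and 3 were higher in KO mock (18.3% and 13.0%), and with the replicate block 2 rose in KO (20.3%). Cyc1 encodes cytochrome c1, the haem protein that hands electrons to cytochrome c. It stood at 113, 119 and 122 CPM in WT mock, 183, 198 and 188 CPM in WT IL-4, 168, 153 and 157 CPM in KO mock and 173, 174 and 162 CPM in KO IL-4. WT mock was lowest and WT IL-4 highest without overlap, and the KO groups lay between them and overlapped each other. Cyc1 rose in WT by 0.68 (adjusted p = 1.28e-06, SE 0.06) and was higher in KO mock by 0.43 (adjusted p = 2.03e-04, SE 0.06). IL-4 in KO gave 0.09 (adjusted p = 0.280, SE 0.06), and KO against WT with IL-4 was -0.16 (adjusted p = 0.0905, SE 0.06). The interaction of Cyc1 was -0.59 (adjusted p = 0.0148, SE 0.09), a call lost without KO IL-4 library 1 (adjusted p = 0.0540) and kept with the length and GC correction at -0.38 (adjusted p = 0.0228). The adjusted p of the interaction ranged from 1.80e-07 to 0.0876 over the alternative settings.

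Uqcr10, Uqcr11 and Uqcrq are small subunits without redox groups. Uqcr10 was at 43.8, 50.5 and 46.5 CPM in WT mock, 76.6, 87.6 and 75.9 CPM in WT IL-4, 58.99, 58.04 and 57.3 CPM in KO mock and 63.3, 65.5 and 68.6 CPM in KO IL-4, so the 4 groups did not overlap. It rose in WT by 0.77 (adjusted p = 2.63e-06, SE 0.08). Its interaction was -0.59 (adjusted p = 0.0325, SE 0.11), lost without WT mock library 1 or 3 or any 1 KO library (then an adjusted p of 0.0517 to 0.0961). KO against WT was 0.31 in mock (SE 0.08, adjusted p = 0.00661) and -0.28 (adjusted p = 0.0170, SE 0.08) with IL-4, the latter lost without WT IL-4 library 2 or KO IL-4 library 1 or 2 (then an adjusted p of 0.0563 to 0.0893). Neither genotype difference was called with the length and GC correction, at 0.11 (adjusted p = 0.313) and -0.15 (adjusted p = 0.174). Uqcrq was at 53.97, 67.3 and 55.2 CPM in WT mock, 80.4, 105 and 79.05 CPM in WT IL-4, 81.5, 77.9 and 81.2 CPM in KO mock and 77.2, 71.7 and 72.7 CPM in KO IL-4, and here the KO IL-4 libraries were the lower of the KO groups. Uqcrq was higher in KO mock by 0.45 (adjusted p = 0.00572, SE 0.11). Its interaction of -0.70 (adjusted p = 0.0494, SE 0.15) was the lowest of the 6 called and remained called with the length and GC correction at -0.35 (adjusted p = 0.0481), but was lost without any 1 library except WT mock library 2 or WT IL-4 library 3. Uqcr11 stood at 96.8, 107 and 95.7 CPM in WT mock, 138, 181 and 136 CPM in WT IL-4, 131, 122 and 129 CPM in KO mock and 120.0, 122 and 124 CPM in KO IL-4. WT IL-4 library 2 was the highest of its group by a wide margin for both Uqcr11 and Uqcrq. Uqcr11 rose in WT by 0.60 (adjusted p = 2.27e-04, SE 0.09). The interaction of Uqcr11 was -0.66 (adjusted p = 0.0410, SE 0.13), lost without the same 8 libraries one at a time, and KO against WT was 0.35 (adjusted p = 0.0113, SE 0.09) in mock and -0.31 (adjusted p = 0.0327, SE 0.09) with IL-4. The call with IL-4 was lost without WT IL-4 library 2 or any 1 KO IL-4 library (then an adjusted p of 0.0767 to 0.110) and with the length and GC correction, at -0.13 (adjusted p = 0.0744).

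Of the other genes of complex III, Uqcrfs1, the Rieske iron-sulfur protein, rose with IL-4 in WT from 66.7 ± 5.20 to 95.8 ± 4.22 CPM (SD, n = 3), a log2 fold change of 0.52 (adjusted p = 1.42e-04, SE 0.08). In KO mock it was higher by 0.22 (adjusted p = 0.0387, SE 0.08). That call was lost when mock library 1 or 3 of WT or mock library 1 or 3 of KO was left out (then an adjusted p of 0.0635 to 0.159) and with the length and GC correction, at 0.00 (adjusted p = 0.969), and with the correction for deposited length its estimate turned below 0. Uqcrc2, a core protein, was the 1 gene not called higher in KO mock. Uqcrb was the 1 gene not called with IL-4 in WT, at 66.01 ± 12.5 CPM in WT mock and 73.4 ± 7.56 CPM in WT IL-4, and its exons share 50 bases with those of Gm10767 on the other strand. The sources used here do not say whether counting used strand, so reads there cannot be told apart.

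Cytochrome c, the soluble carrier between complexes III and IV, has 1 member, Cycs. It was at 35.2, 37.8 and 30.3 CPM in WT mock, 48.7, 55.9 and 44.1 CPM in WT IL-4, 41.9, 37.5 and 40.00 CPM in KO mock and 43.8, 42.1 and 45.8 CPM in KO IL-4. The WT groups did not overlap, and KO IL-4 lay above KO mock. Cycs rose with IL-4 in WT by 0.53 (adjusted p = 0.00102, SE 0.10), while KO gave 0.14 (adjusted p = 0.305, SE 0.10). KO against WT was 0.21 (adjusted p = 0.118, SE 0.10) in mock, called without WT mock library 2 (adjusted p = 0.0405), and -0.18 (adjusted p = 0.243, SE 0.10) with IL-4. Its interaction was -0.39 (adjusted p = 0.168, SE 0.14) and was called with the replicate block, at -0.38 (adjusted p = 0.0194).

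**Figure D3:**
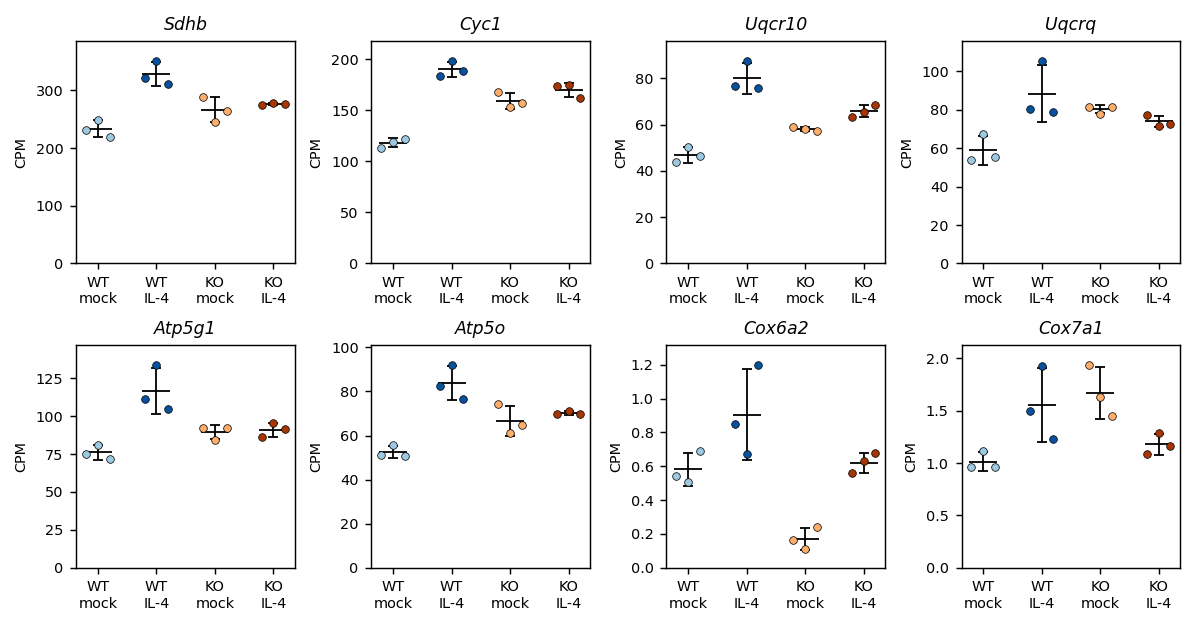
CPM of 8 members in each library (points, 3 per group), with the mean (bar) and SD (whiskers, n = 3) of each group on axes that start at 0. For Sdhb, Cyc1, Uqcr10, Uqcrq, Atp5g1 and Atp5o the WT IL-4 mean is the highest of the 4 groups, whereas Cox6a2 is lowest in KO mock and Cox7a1 highest there.

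In complex IV, 9 of 13 genes rose with IL-4 in WT and 3 rose in KO (13.6% and 16.0% of all genes). In KO mock 3 were higher and 1 lower (15.7% and 18.8%), and with IL-4 1 was lower in KO (10.2%). With the length and GC correction 10 rose in WT, 10 rose in KO and 2 were lower in KO with IL-4 (15.1%, 18.3% and 12.4%). With the replicate block 5 rose in KO and 1 fell (20.3% and 18.2%), and none was lower in KO with IL-4 (9.89%). Cox8a, a small structural subunit, stood at 129, 149 and 127 CPM in WT mock, 224, 276 and 216 CPM in WT IL-4, 167, 146 and 155 CPM in KO mock and 198, 194 and 199.5 CPM in KO IL-4. In both genotypes the IL-4 libraries were above all mock libraries. Its log2 fold change was 0.83 (adjusted p = 8.95e-06, SE 0.09) in WT and 0.34 (adjusted p = 0.0120, SE 0.09) in KO, the call in KO being lost, with an adjusted p just above the threshold, when KO mock library 2 was dropped. With IL-4 it was lower in KO than in WT, with a log2 fold change of -0.27 (adjusted p = 0.0495, SE 0.09). Its adjusted p ranged from 0.00292 to 0.193 over the alternative settings, and when 1 library was left out the call was kept only without mock library 2 of WT, mock library 1 of KO or WT IL-4 library 3. Cox7b, another small subunit, also rose in both genotypes, from 53.3 ± 7.68 to 81.5 ± 10.8 CPM in WT and from 58.8 ± 3.78 to 74.3 ± 1.26 CPM in KO (SD, n = 3), by 0.61 (adjusted p = 4.97e-04, SE 0.11) and 0.34 (adjusted p = 0.0250, SE 0.11). The KO call of Cox7b was lost without KO mock library 2 or 3, or either of KO IL-4 libraries 2 and 3 (then an adjusted p of 0.0557 to 0.0775) and kept with the length and GC correction.

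Cox5a and Cox5b encode larger nuclear subunits of the oxidase. Cox5a was at 56.8, 66.8 and 51.7 CPM in WT mock, 93.4, 112 and 89.2 CPM in WT IL-4, 88.01, 80.2 and 78.8 CPM in KO mock and 93.3, 98.8 and 99.7 CPM in KO IL-4. WT mock was below the other 9 libraries, and the IL-4 groups of both genotypes overlapped. Cox5a was higher in KO mock by 0.50 (adjusted p = 0.00189, SE 0.10), kept with the length and GC correction at 0.28 (adjusted p = 0.00106), and rose with IL-4 in WT by 0.75 (adjusted p = 5.24e-05, SE 0.10). In KO its IL-4 change was 0.24 (adjusted p = 0.0831, SE 0.10), which was called with the length and GC correction at 0.37 (adjusted p = 8.45e-05). Cox5b rose in WT by 0.69 (adjusted p = 2.88e-04, SE 0.11). Cox4i1, the first of complex IV by level per kilobase of transcript and the fourth per kilobase of the deposited length, was at 293 ± 28.9 CPM in WT mock and 352 ± 19.6 CPM in KO mock (SD, n = 3), a log2 difference of 0.27 (adjusted p = 0.0423, SE 0.10) that was lost when mock library 1 or 3 of WT or mock library 1 or 3 of KO was left out (then an adjusted p of 0.0943 to 0.116) and with the length and GC correction.

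Subunits 6a and 7a of the oxidase have isoforms known from heart and skeletal muscle, Cox6a2 and Cox7a1, and both were measured here at low levels. Per kilobase of transcript, Cox6a2 gave 0.0590% to 0.539% of the Cox6a signal of a library, the rest being Cox6a1, and Cox7a1 gave 1.59% to 2.79% of the signal of Cox7a1, Cox7a2 and Cox7a2l. Cox6a2 had 17, 16 and 26 counts in WT mock libraries 1, 2 and 3, 34, 25 and 39 in WT IL-4, 5, 4 and 8 in KO mock and 18, 23 and 25 in KO IL-4. Each KO mock library was below every other library. KO against WT in mock was -1.76 (adjusted p = 0.00294, SE 0.38), and IL-4 in KO gave 1.84 (adjusted p = 0.00197, SE 0.38). By summed counts the ratio of KO to WT in mock was 0.278 (exact 95% interval 0.152 to 0.483) and that of IL-4 to mock in KO was 3.81 (2.21 to 6.93), intervals that cover counting error only. The interaction of Cox6a2 was 1.23 (adjusted p = 0.202, SE 0.49), the 1 member with an estimate above 0. Its exons share 70 bases with those of the integrin gene Itgad on the other strand, which stood at 0.545, 0.382 and 0.639 CPM in WT mock, 1.55, 1.15 and 1.69 CPM in WT IL-4, 1.93, 1.63 and 1.45 CPM in KO mock and 3.41, 3.86 and 2.54 CPM in KO IL-4. Itgad was higher in KO mock by 1.66 (adjusted p = 4.16e-04, SE 0.27), where Cox6a2 was lower. It rose with IL-4 in KO by 0.97 (adjusted p = 0.00493, SE 0.23), as Cox6a2 did, and in WT by 1.47 (adjusted p = 8.57e-04, SE 0.27), where Cox6a2 gave 0.62 (adjusted p = 0.160, SE 0.31). The part of this overlap in the Cox6a2 counts was not tested.

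Cox7a1 was higher in KO mock than in WT mock, where Cox6a2 was lower. It had 30, 35 and 36 counts in WT mock, 60, 72 and 40 in WT IL-4, 59, 59 and 48 in KO mock and 35, 47 and 43 in KO IL-4. WT mock stood at 0.962, 1.11 and 0.958 CPM and KO mock at 1.93, 1.63 and 1.45 CPM, without overlap, a difference of 0.72 (adjusted p = 0.0233, SE 0.22) that was lost when mock library 1 or 3 of WT or mock library 1 of KO was left out (then an adjusted p of 0.0593 to 0.0899) and with the length and GC correction, at 0.52 (adjusted p = 0.0519). IL-4 gave 0.62 (adjusted p = 0.0543, SE 0.22) in WT and -0.50 (adjusted p = 0.103, SE 0.22) in KO. The interaction was -1.12 (adjusted p = 0.0991, SE 0.31) and was called with the replicate block, at -1.09 (adjusted p = 0.0419). Cox7a2l, a factor that joins complexes III and IV in supercomplexes, was the member least alike the rest: Pearson's r of its log2 CPM with the mean of the other 39 members over 5 CPM was 0.378 over the 12 libraries. It stood at 49.5, 54.5 and 46.9 CPM in WT mock and 49.8, 56.2 and 52.6 CPM in WT IL-4, where the groups overlapped, and was not called in any contrast. With the replicate block it was called lower with IL-4 in KO, at -0.19 (adjusted p = 0.0308).

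In complex V, 15 of 16 genes rose with IL-4 in WT and 2 rose in KO (13.6% and 16.0% of all genes). In KO mock 6 were higher, and with IL-4 5 were lower in KO (15.7% and 10.2%). With the length and GC correction 9 rose in KO (18.3%), none was higher and 2 were lower in KO mock (13.0% and 19.2%), and 9 were lower in KO with IL-4 (12.4%). With the replicate block 3 were lower in KO with IL-4 (9.89%). Atp5b encodes the catalytic beta subunit of F1. It stood at 748, 803 and 752 CPM in WT mock, 1190.2, 1244 and 1165 CPM in WT IL-4, 842, 848 and 878 CPM in KO mock and 1029, 1124 and 1085 CPM in KO IL-4, so no groups overlapped. Its log2 fold change with IL-4 was 0.64 (adjusted p = 1.21e-06, SE 0.06) in WT and 0.33 (adjusted p = 6.06e-04, SE 0.06) in KO, and both calls were kept in all 25 alternative settings. KO against WT was 0.16 (adjusted p = 0.0518, SE 0.06) in mock and -0.15 (adjusted p = 0.0869, SE 0.06) with IL-4, and the interaction was -0.31 (adjusted p = 0.0907, SE 0.08). The 4 genes of F1 measured here, Atp5b, Atp5c1, Atp5d and Atp5e, all rose in WT (13.6% of all genes), with a median log2 fold change of 0.59. Atp5e, the epsilon subunit, was lower in KO with IL-4, at 45.3 ± 0.508 CPM against 62.97 ± 10.4 CPM in WT (SD, n = 3), with a log2 fold change of -0.48 (adjusted p = 0.0154, SE 0.12), a call lost without WT IL-4 library 2 or KO IL-4 library 1 or 3 (then an adjusted p of 0.0534 to 0.0630).

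The c ring, the rotor in the membrane, is built from the products of Atp5g1, Atp5g2 and Atp5g3, which differ in the targeting peptide but give the same mature protein. Per kilobase of transcript Atp5g3 gave 46.8% to 53.6% of their summed signal in a library, Atp5g1 35.8% to 41.4% and Atp5g2 10.01% to 13.1%. The split depends on the length used: per kilobase of the deposited length Atp5g3 gave 65.0% to 71.2%, Atp5g1 17.6% to 21.4% and Atp5g2 10.8% to 14.4%. Atp5g1 was at 75.03, 81.2 and 71.9 CPM in WT mock, 112, 134 and 105 CPM in WT IL-4, 92.01, 84.1 and 92.1 CPM in KO mock and 86.3, 95.4 and 91.7 CPM in KO IL-4. The KO groups overlapped and lay between the WT groups. Atp5g1 rose in WT by 0.62 (adjusted p = 9.73e-05, SE 0.09). Its interaction was -0.59 (adjusted p = 0.0462, SE 0.12), lost without any 1 library except WT mock library 2 or WT IL-4 library 3, and with IL-4 it was lower in KO, with a log2 fold change of -0.36 (adjusted p = 0.0108, SE 0.09), lost without KO IL-4 library 1 (adjusted p = 0.0630). Atp5g2 was at 19.1, 21.05 and 16.8 CPM in WT mock, 23.9, 31.8 and 22.3 CPM in WT IL-4, 18.1, 19.1 and 19.96 CPM in KO mock and 18.98, 18.8 and 18.9 CPM in KO IL-4, so WT IL-4 alone stood above the rest. With IL-4 it was lower in KO, with a log2 fold change of -0.46 (adjusted p = 0.0154, SE 0.12), a call lost without WT IL-4 library 2 or any 1 KO IL-4 library (then an adjusted p of 0.0514 to 0.0559). Atp5g3 rose in both genotypes, by 0.71 (adjusted p = 9.98e-05, SE 0.10) in WT and 0.35 (adjusted p = 0.0164, SE 0.10) in KO, the latter lost without KO mock library 2 or KO IL-4 library 3 (then an adjusted p of 0.0525 to 0.0557). Its share of the c ring signal per kilobase of transcript was 48.4% ± 1.42 in WT mock, 50.8% ± 0.261 in WT IL-4, 47.3% ± 0.488 in KO mock and 53.2% ± 0.654 in KO IL-4 (SD, n = 3). How multimapping reads were counted is not known here, so the split between these similar genes is uncertain.

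In the stalk and membrane part of complex V, 8 of 9 genes rose with IL-4 in WT and none was called in KO (13.6% and 16.0% of all genes called higher). With the length and GC correction 5 rose in KO (18.3%). Atp5o encodes the subunit that binds the stator to F1. It stood at 51.3, 55.7 and 50.6 CPM in WT mock, 82.4, 91.9 and 76.7 CPM in WT IL-4, 74.3, 60.9 and 64.7 CPM in KO mock and 69.6, 71.2 and 69.7 CPM in KO IL-4. WT mock was lowest and WT IL-4 highest, and KO IL-4 lay within the range of KO mock. Atp5o rose in WT by 0.67 (adjusted p = 3.22e-05, SE 0.09). Its interaction was -0.60 (adjusted p = 0.0402, SE 0.12), lost without any 1 library except WT mock library 2, KO mock library 2 or WT IL-4 library 3. KO against WT was 0.34 (adjusted p = 0.00704, SE 0.09) in mock, lost with the length and GC correction at 0.12 (adjusted p = 0.115), and -0.25 (adjusted p = 0.0495, SE 0.08) with IL-4. The call with IL-4 was kept only without KO mock library 1 or 2 or WT IL-4 library 3, and was lost with the replicate block, at -0.25 (adjusted p = 0.0597). Atp5f1, subunit b of the stator, was the 1 gene of complex V not called with IL-4 in WT, at 173, 194 and 155 CPM in WT mock and 182, 206 and 188 CPM in WT IL-4, which overlapped. In KO mock it was higher by 0.31 (adjusted p = 0.00949, SE 0.08). Atp5mpl, a small membrane subunit, was higher in KO mock by 0.32 (adjusted p = 0.0203, SE 0.10), a call lost when mock library 1 or 3 of WT or mock library 3 of KO was left out, and Atp5d, the delta subunit of F1, by 0.35 (adjusted p = 0.00997, SE 0.09). None of the 3 was called with the length and GC correction, at 0.12 (adjusted p = 0.0985), 0.05 (adjusted p = 0.541) and 0.16 (adjusted p = 0.0666). Atp5k, the e subunit of the membrane part, was lower in KO with IL-4, at 20.2 ± 2.41 against 26.1 ± 3.96 CPM (SD, n = 3), with a log2 fold change of -0.37 (adjusted p = 0.0476, SE 0.12), a call kept only without WT mock library 2, WT IL-4 library 3 or KO IL-4 library 3. It was lost with the length and GC correction, at -0.24 (adjusted p = 0.0636). The exons of Atp5f1 share 337 bases with those of Wdr77 on the other strand, which stood between 17.0 and 21.7 CPM in all libraries. Those of Atp5o share 243 bases with another protein-coding gene also named Atp5o on the same strand. They also share 356 bases with Gm15976 and 346 with D430001F17Rik on the other strand. None of these was among the genes measured, and the part of these overlaps in the Atp5o counts was not tested.

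**Figure D4:**
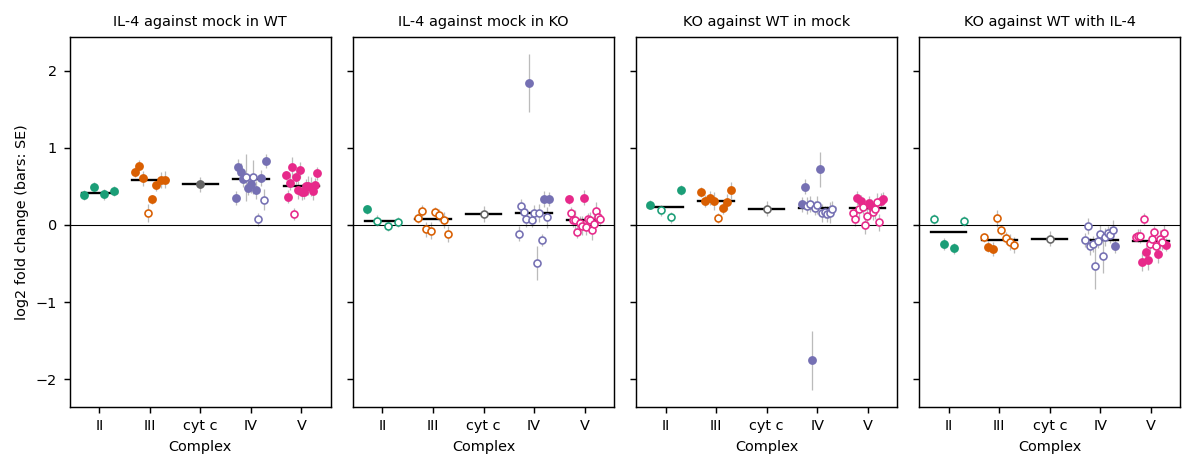
Points give the log2 fold change of each member (vertical bars: SE) in 4 contrasts, by complex, filled where the adjusted p is under 0.05, with a black line at the median of each complex. The medians lie between 0.42 and 0.60 for IL-4 in WT, between 0.05 and 0.15 for IL-4 in KO, between 0.21 and 0.31 for KO against WT in mock and between -0.20 and -0.10 with IL-4. The 2 points far from the rest are Cox6a2.

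Compared by complex, the median log2 fold change with IL-4 in WT was 0.42 in complex II, 0.58 in complex III, 0.53 for cytochrome c, 0.60 in complex IV and 0.50 in complex V, and 0.36 over the 34 nuclear genes of complex I. With the length and GC correction complexes II to V stood at 0.42, 0.40, 0.37 and 0.37. Complex II, whose transcripts had a median of 2065.5 bases against 541 to 669.5 bases in complexes III to V, had the lowest of these 4 medians without the correction and the highest with it. In KO mock against WT mock the medians were 0.23, 0.31, 0.22 and 0.22 for complexes II to V, and 0.18, 0.10, 0.02 and 0.02 with the correction. Called members with the correction were 2 of 4 in complex II and 3 of 8 in complex III, all higher, 1 higher and 1 lower in complex IV, and 2 lower in complex V. Of all genes 13.0% were then called higher and 19.2% lower. Differences between complexes were not tested, since their members share the same libraries.

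Summed over its genes, complex II took 918 ± 21.9 CPM in WT mock, 1233 ± 15.4 CPM in WT IL-4, 1107 ± 46.1 CPM in KO mock and 1197 ± 36.2 CPM in KO IL-4 (SD, n = 3). Complex III took 583 ± 43.3, 850.3 ± 76.8, 727 ± 30.8 and 751 ± 1.28 CPM in the same order. The 3 KO IL-4 libraries of complex III differed by less than 3 CPM. Complex IV took 1098 ± 130.1, 1581 ± 219, 1301 ± 68.1 and 1384 ± 25.8 CPM, and complex V 1889 ± 148, 2754 ± 214, 2166 ± 51.9 and 2459 ± 69.4 CPM. The ratio of IL-4 to mock was 1.34, 1.46, 1.44 and 1.46 for complexes II to V in WT and 1.08, 1.03, 1.06 and 1.14 in KO. All 42 members together stood at 4421, 4906 and 4242 CPM in WT mock, 6231, 7075 and 6098 CPM in WT IL-4, 5536, 5147 and 5339 CPM in KO mock and 5722, 5899 and 5885 CPM in KO IL-4. Both KO groups lay between the WT groups, with no overlap among the 4 groups. Sums weigh a few abundant genes most, and Atp5b alone made up 768 of the 4523 CPM of WT mock.

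By replicate number, all 42 members were higher with IL-4 than mock in WT 1, in WT 2 and in WT 3, with medians of 0.49, 0.56 and 0.53 in log2 CPM. In KO, 21 of 42 were higher in KO 1, 35 in KO 2 and 33 in KO 3, with medians of -0.00, 0.13 and 0.12. Over the 8126 genes whose mean log2 CPM was above 3, 47.1% to 51.0% were higher in WT and 46.5% to 49.6% in KO. KO 1 was the lowest KO culture for each of complexes II to V, with medians of -0.07, -0.00, 0.08 and -0.04, and its mock library was the one whose deviation from the group mean had a rho of -0.61 with transcript length. The part of length in the difference between KO cultures was not tested.

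**Figure D5:**
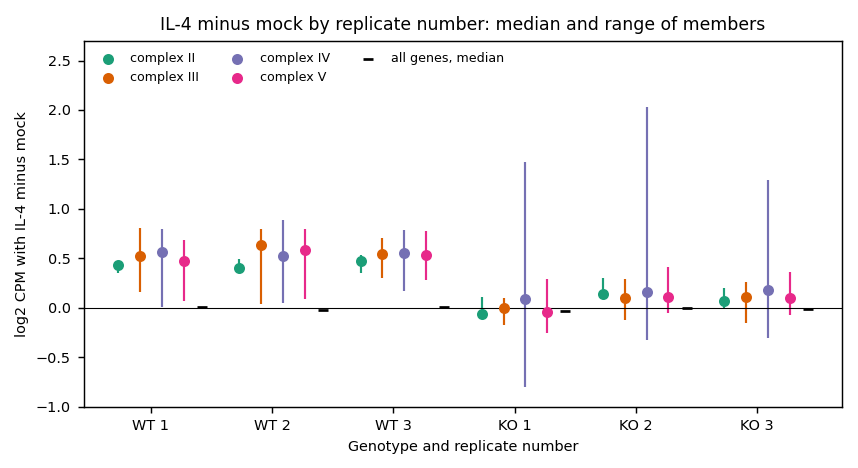
Points give the median, and lines the range, of log2 CPM with IL-4 minus mock over the members of complexes II, III, IV and V for each genotype and replicate number, and black dashes the median of 8126 genes whose mean log2 CPM was above 3. The WT points lie between 0.40 and 0.63 and the KO points between -0.07 and 0.17. The long complex IV lines in KO end at Cox6a2 at the top and at Cox7a1 at the bottom.

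Assembly factors and further subunits of these complexes were listed apart from the members. Of 42 listed genes, 39 were in the table. In WT 4 rose with IL-4 and none fell (13.6% and 13.0% of all genes), with a median log2 fold change of 0.05, and in KO 2 rose and 10 fell (16.0% and 14.2%), with a median of -0.20. In KO mock 17 were higher than in WT and none lower (15.7% and 18.8% of all genes, median 0.24), and with IL-4 1 was higher and 1 lower (8.57% and 10.2%, median 0.01). Uqcc2, a factor for cytochrome b of complex III, rose in WT by 0.32 (adjusted p = 0.0333, SE 0.10), fell in KO with a log2 fold change of -0.36 (adjusted p = 0.0159, SE 0.10) and had the 1 called interaction of the list, -0.68 (adjusted p = 0.0492, SE 0.15). Its interaction was lost without any 1 library except WT mock library 2 or WT IL-4 library 3 (then an adjusted p of 0.0549 to 0.126). Its call in WT was lost without mock library 1 or 3 or IL-4 library 2 of WT (then an adjusted p of 0.0606 to 0.141), and that in KO without KO mock library 1 or KO IL-4 library 2 (then 0.0621 to 0.0676). Atpaf1, a chaperone of the F1 beta subunit, was higher in KO mock by 0.27 (adjusted p = 0.0195, SE 0.08) and fell with IL-4 in KO, at -0.42 (adjusted p = 0.00129, SE 0.08), the first of these lost when mock library 1 of WT or 3 of KO was dropped (then an adjusted p of 0.0539 to 0.0583). Surf1, needed for the assembly of complex IV, was higher in KO mock by 0.53 (adjusted p = 0.00173, SE 0.11) and fell with IL-4 in KO, at -0.30 (adjusted p = 0.0423, SE 0.10), the second of these lost without any 1 KO library (then an adjusted p of 0.0609 to 0.145). Fmc1, a factor for complex V known from yeast, rose with IL-4 in both genotypes, by 1.36 (adjusted p = 3.67e-06, SE 0.14) in WT and 0.82 (adjusted p = 4.75e-04, SE 0.14) in KO, and was lower in KO with IL-4, with a log2 fold change of -0.50 (adjusted p = 0.0150, SE 0.13), lost without WT IL-4 library 2 or KO IL-4 library 2 or 3 (then an adjusted p of 0.0538 to 0.0671). With the length and GC correction 8 of the list rose and 1 fell with IL-4 in WT (15.1% and 15.1% of all genes), and 4 rose and 6 fell in KO (18.3% and 14.7%). In KO mock 11 were then higher and 2 lower (13.0% and 19.2%), and with IL-4 2 were higher and 3 lower in KO (10.4% and 12.4%). No interaction was then called (0.335% lower and 0.678% higher over all genes). With the replicate block 7 rose in WT (16.8%) and 8 interactions were called lower (5.14%). Differences between this list and the members were not tested.

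None of the 3 subunits of complexes III and IV measured from mitochondrial DNA was called with IL-4 in WT. The gene of cytochrome b, mt-Cytb, stood at 389, 365 and 290.1 CPM in WT mock, 419.8, 452 and 287 CPM in WT IL-4, 214, 274 and 229 CPM in KO mock and 358, 351 and 353 CPM in KO IL-4. The WT groups overlapped, and KO mock lay below WT mock. Its log2 fold change with IL-4 was 0.15 (adjusted p = 0.499, SE 0.15) in WT and 0.57 (adjusted p = 0.00921, SE 0.15) in KO, and that of KO against WT in mock was -0.54 (adjusted p = 0.0111, SE 0.15), lost when mock library 1 of either genotype was dropped (then an adjusted p of 0.0550 to 0.0683). The gene of oxidase subunit 1, mt-Co1, gave -0.08 (adjusted p = 0.604, SE 0.10) in WT and 0.28 (adjusted p = 0.0527, SE 0.10) in KO. With IL-4 it was higher in KO than in WT by 0.44 (adjusted p = 0.00755, SE 0.10), a call lost with the length and GC correction. By contrast, mt-Co3 was under 1 CPM in every library, where mt-Co1 stood between 451 and 783 CPM. At that level the lack of a call for mt-Co3 says little, and the cause of its low counts was not tested. In complex I, 26 of 34 nuclear genes rose with IL-4 in WT and none was called in KO (13.6% and 16.0% of all genes were called higher). In KO mock 19 were higher (15.7%), and with IL-4 none was called between the genotypes (8.57% of all genes higher and 10.2% lower). With the length and GC correction 7 rose and 1 fell with IL-4 in KO (18.3% and 14.7% of all genes). In KO mock 11 were then higher and 1 lower (13.0% and 19.2%), and with IL-4 4 were lower in KO (12.4%). With the replicate block 8 fell with IL-4 in KO (18.2%).

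Levels between members can be compared only per length. Per kilobase of transcript and averaged over the 4 groups, Atp5b stood at 509 CPM per kb, Cox4i1 at 451, Cox8a at 330.2, Cox6a1 at 302 and Uqcr11 at 281. The lowest were Cycs at 13.4, Cox7a1 at 3.44 and Cox6a2 at 0.838 CPM per kb. Within complex II Sdhb stood at 242, Sdhd at 183, Sdha at 176 and Sdhc at 32.2 CPM per kb. The order depends on the length used: per kilobase of the deposited length, which merges all exons of a gene, Cox8a came first, Atp5b ranked 4, Sdhd was the highest of complex II, and Atp5l stood below Cycs.

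The members also varied together within groups. Over 40 members with a mean of at least 5 CPM, the median Pearson's r between pairs was 0.865 over the 12 libraries and 0.813 for the deviations from the group means, as a description of libraries that share depth and length trends. For the deviations it was 0.926 within complex IV, 0.802 within complex V, 0.658 within complex III and 0.284 within complex II. After Cox7a2l, the members least like the mean of the others were Atp5f1 (r = 0.562), Uqcrb (0.597) and Sdha (0.686), and the most alike was Uqcrh (0.989). Of the 42 members 13 share exon bases with another gene of the GENCODE M21 annotation, among them Atp5f1 and Uqcrb, and 10 of them with a gene of the table.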

How the data were processed

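RNA of 12 macrophage cultures was extracted with the RNeasy Micro kit, per the labels' protocols. Per the submitters' processing notes, reads were handled with bcl2fastq, STAR (2.7.2b), featureCounts from Subread (1.6.5) and edgeR, on build mm10. Details of the library kit, strand setting and multimapping reads were not given in the sources used here. Raw counts were deposited by the authors per gene, with gene names and lengths, in 1 table of 13715 genes. Each gene has a total of at least 50 counts over the libraries. Library totals lay between 30651627 and 39136822 counts.

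The counts were fitted with edgeR 4.0.16 in R 4.3.3 (TMM factors 0.942 to 1.02, 1 coefficient per group, 8 residual degrees of freedom, common dispersion 0.0115). The quasi-likelihood test was two-sided, with Benjamini-Hochberg adjustment over all 13715 genes and a threshold of 0.05. All adjusted p-values are from this test unless another is named. filterByExpr removed 0 genes. Fold changes are log2. The log2 CPM values, log2 fold changes and p-values that the authors deposited in the same table, per the file headers, were not used for any result. DESeq2 1.42.0 served alternatives. Scripts were tested on simulated data. The length correction removed a smooth trend with length, or with transcript length and GC content (GENCODE M21), from each library. Transcript length is that of the principal transcript, and where several tied the shortest was used unless the longest is named. This also holds for levels per kilobase of transcript. Tied lengths differed for Uqcrq (405 or 1521 bases), Atp5g1 (596 or 4715) and Atp5g2 (441 or 731), so their levels and corrected values depend on that choice. Of 25 other settings tried, 3 were added after seeing the data. The members and lists were chosen with earlier results of these data known.

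Named were the genes of complex II, Cyc1 and Cycs in every contrast, up to 4 called members of complexes III, IV and V per contrast with the smallest adjusted p, and alternative isoforms by their levels. Other members named, such as Uqcrb, Uqcrc2, Uqcrh and Cox7a2l, were chosen after their values were seen.

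Same-numbered mock and IL-4 libraries deviated together within a genotype over 8126 genes, with correlations of 0.229, 0.491 and 0.406 in WT and 0.551, 0.579 and 0.518 in KO. The block pairs them in the IL-4 contrasts and the interaction. KO and WT libraries did not pair by number (correlations of -0.319 to 0.175). The block of the KO against WT contrasts still took the number over both genotypes, so its results there rest on that grouping.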

Additional observations from a re-analysis of the deposited data

Results flagged for a closer look

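The change with IL-4 differed between the genotypes for 6 members, by the interaction term of edgeR's quasi-likelihood test. The log2 change with IL-4 in KO less the same change in WT was -0.59 (adjusted p = 0.0148, SE 0.09) for Cyc1, -0.59 (adjusted p = 0.0325, SE 0.11) for Uqcr10 and -0.66 (adjusted p = 0.0410, SE 0.13) for Uqcr11. It was -0.70 (adjusted p = 0.0494, SE 0.15) for Uqcrq, -0.59 (adjusted p = 0.0462, SE 0.12) for Atp5g1 and -0.60 (adjusted p = 0.0402, SE 0.12) for Atp5o. In each of them the change in WT was the higher one. With the correction for transcript length and GC content only Cyc1 and Uqcrq stayed called. No gene was called by edgeR without KO IL-4 library 1 or without both KO 2 libraries. Over the alternative settings the adjusted p ranged from 1.80e-07 to 0.0876 for Cyc1, 7.79e-05 to 0.287 for Uqcr10, 6.82e-04 to 0.114 for Uqcr11, 5.96e-04 to 0.138 for Uqcrq, 0.00149 to 0.175 for Atp5g1 and 5.60e-04 to 0.110 for Atp5o.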

How the results depend on the processing

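In KO mock against WT mock, Uqcrfs1 (0.22 as reported) stood at -0.0362 with the deposited length, -0.0363 with it and the replicate block and -0.0128 with the longest transcript length and GC. 5 members with uncalled estimates above 0 there were called lower with transcript length and GC: Atp5c1 at -0.16, -0.18 and -0.16 with the shortest, the longest, and the shortest with the block, Atp5md at -0.23, -0.25 and -0.23, and with the longest Atp5g2 at -0.22, Cox7b at -0.18 and Uqcrc2 at -0.16. No other member changed direction between the reported fit and an alternative where either made a call. Percentages in the next sentences are the share of all genes tested that were called in the same direction in the same setting. The count of members higher in KO mock (18, 15.7%) was 11 with library size alone (11.5%), 6 with the deposited length (13.0%) and 7 with it and the replicate block (12.5%). It was 6, 7 and 6 with the shortest transcript length and GC, the longest, and the shortest with the block (13.0%, 12.8% and 12.9%). The count lower there (1, 18.8%) was 0 at a mean log2 CPM of at least 1 (23.0%), where Cox6a2 was not tested, and 3, 6 and 3 in those last settings (19.2%, 19.1% and 19.0%). The count lower in KO with IL-4 (10, 10.2%) was 6 with only the groups compared (9.27%), 2 without both KO 2 libraries (6.45%), 20 and 19 with the length correction without and with the block (12% and 11.9%), and 18, 18 and 20 with transcript length and GC (12.4%, 12.3% and 12.3%). The count higher with IL-4 in KO (6, 16.0%) was 11, 2, 24, 28, 27, 27 and 30 in the same order of settings (17.7%, 11.8%, 17.5%, 20.3%, 18.3%, 18.5% and 21.9%), and 10 with the replicate block (20.3%), where 1 was lower (18.2%). The interaction count (6, 0.408%) was 2 with library size alone (0.175%), 23 with DESeq2's Wald test (3.1%) and 0 without both KO 2 libraries (0%). It was 4 with the length correction (0.35%), 14 with it and the block (2.25%), 2, 3 and 12 with transcript length and GC (0.335%, 0.365% and 3.29%), and 32 with the replicate block (5.14%). Leaving out 1 library at a time gave 10 to 32 higher and 1 lower in KO mock (10.8% to 17.3% and 13.2% to 20.7%) and 1 to 12 lower in KO with IL-4 (6.44% to 10.8%). It gave 35 to 39 higher with IL-4 in WT (11.8% to 14.3%), 2 to 9 higher in KO (12.2% to 17.7%) and 0 to 11 lower for the interaction (0% to 0.547%). Where no cause is named, the cause was not tested. Where the block moved a count given for a single complex, complex I or the assembly list by over 1.5 times, its value stands beside that count. The lowest count of a member in a library was 4, for Cox6a2, whose values depth limits.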
